A study of Mus musculus with 23 samples.

Results

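A set of 9 genes that restrain or gate insulin, EGF receptor and mTOR signalling, all linked to glucocorticoids, was followed through the count table: Ddit4, Sgk1, Sgk3, Errfi1, Irs1, Irs2, Pik3r1, Foxo1 and Foxo3. They were chosen by name, with earlier results of these data known, and found by their Ensembl identifiers. Thus 9 of the 55487 rows of the table are described, over all 23 libraries. The cells were primary fibroblasts of FVB/NJ mouse embryos (MEFs), and RNA was sequenced after 5 h with 10 nM dexamethasone (Dex), a synthetic agonist of the glucocorticoid receptor (GR), or with its solvent (vehicle). All cells were homozygous at the GR locus. GRwt/wt cells carried the unmodified receptor, GRD/D cells a threonine in place of an alanine in the DNA-binding domain, where receptors dimerise, GRL/L cells an alanine in place of an isoleucine in the ligand-binding domain, introduced by CRISPR together with a silent base change, and GRD+L/D+L cells both amino acid changes. Each combination of genotype and treatment had 3 libraries, except GRD/D vehicle with 2, and the 3 cultures of a genotype each came from a different animal. A mutant line therefore differs from GRwt/wt in its cultures as well as in its receptor, and because libraries are bulk RNA, a change in the share of a cell type and a change in RNA per cell cannot be told apart.

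Insulin and IGF receptors signal through the adaptor proteins IRS1 and IRS2, which recruit PI3-kinase by its regulatory subunit p85alpha, the product of Pik3r1. PI3-kinase activates AKT and the related kinases SGK1 and SGK3, AKT switches on mTOR complex 1 and keeps the transcription factors FOXO1 and FOXO3 out of the nucleus, and FOXO factors in turn promote transcription of stress and catabolic genes. Inhibitors also act on this network from the side, since REDD1, the product of Ddit4, restrains mTOR complex 1 through the TSC complex, and MIG6, the product of Errfi1, blocks the kinase of the EGF receptor. Glucocorticoids oppose insulin in muscle, fat and skin, and several of these genes are known from such tissues as targets of GR.

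In GRCm38, the adaptor genes are Irs1 (ENSMUSG00000055980) at chr1:82233101-82291416 on the minus strand and Irs2 (ENSMUSG00000038894) at chr8:10984681-11008458 on the minus strand, and the subunit gene is Pik3r1 (ENSMUSG00000041417) at chr13:101680563-101768217 on the minus strand. The kinase genes are Sgk1 (ENSMUSG00000019970) at chr10:21882184-21999903 on the plus strand and Sgk3 (ENSMUSG00000025915) at chr1:9798107-9900845 on the plus strand. The inhibitor genes are Ddit4 (ENSMUSG00000020108) at chr10:59949669-59951834 on the minus strand and Errfi1 (ENSMUSG00000028967) at chr4:150853919-150868892 on the plus strand. The forkhead genes are Foxo1 (ENSMUSG00000044167) at chr3:52268336-52353221 on the plus strand and Foxo3 (ENSMUSG00000048756) at chr10:42181841-42276755 on the minus strand. Counts were taken over whole genes, so that they do not separate transcripts or start sites.

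The sequence before the start sites was read first, because GR binds DNA at glucocorticoid response elements and the D change lies in the surface through which 2 receptors pair on such an element. RefSeq promoter windows of GRCm38.p6, from 250 bases before to 50 bases after a start site, were matched by symbol for 8 of the 9 genes, all but Sgk3, with 15 windows in all, 6 of them for Sgk1. Both strands were searched for AGAACA (one arm of a glucocorticoid response element), GTAAACA (a forkhead core), CACGTG (an E-box) and TGACG (an arm of a cAMP response element). Sgk1 was the only one of these 8 genes with AGAACA, in 3 of its windows, and 19.0% of all 32851 promoter windows held these letters. GTAAACA was in none of the 15 windows, against 3.65% of all windows, CACGTG was in 3, against 7.15%, and TGACG in 5, against 20.8%. A match is a description of the letters and not a site shown to be used. The 250 bases before 4 start sites are shown, for the kinase gene with the AGAACA letters and for 3 other genes whose libraries separated with Dex in GRwt/wt cells, with the motif letters in capitals.
Sgk1, start site 5 (chr10:21993640-21993889, plus strand): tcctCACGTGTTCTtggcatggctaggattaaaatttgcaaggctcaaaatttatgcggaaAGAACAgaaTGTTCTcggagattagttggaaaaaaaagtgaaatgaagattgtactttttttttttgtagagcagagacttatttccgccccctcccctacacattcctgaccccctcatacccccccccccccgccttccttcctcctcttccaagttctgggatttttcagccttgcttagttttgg
Errfi1, start site 2 (chr4:150854820-150855069, plus strand): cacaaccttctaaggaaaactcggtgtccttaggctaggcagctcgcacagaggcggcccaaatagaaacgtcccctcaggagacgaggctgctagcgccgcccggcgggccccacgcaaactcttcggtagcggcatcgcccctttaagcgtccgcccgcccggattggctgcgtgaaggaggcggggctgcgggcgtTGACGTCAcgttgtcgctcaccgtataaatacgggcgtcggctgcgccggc
Pik3r1, start site 2 (chr13:101692631-101692880, minus strand): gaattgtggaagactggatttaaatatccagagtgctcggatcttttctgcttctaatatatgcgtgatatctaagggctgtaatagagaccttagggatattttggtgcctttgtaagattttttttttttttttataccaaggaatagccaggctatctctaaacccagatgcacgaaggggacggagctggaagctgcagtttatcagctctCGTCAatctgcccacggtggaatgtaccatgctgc
Foxo3 (chr10:42276696-42276945, minus strand): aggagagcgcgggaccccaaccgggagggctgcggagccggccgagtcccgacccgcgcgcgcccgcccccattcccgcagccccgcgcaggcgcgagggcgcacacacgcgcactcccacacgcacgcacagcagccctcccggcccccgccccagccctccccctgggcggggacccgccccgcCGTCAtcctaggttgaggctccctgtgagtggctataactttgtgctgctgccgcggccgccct
Start site 5 of Sgk1 holds AGAACA 3 times, and 2 of these copies face each other with 3 bases between them, 189 bases before the start. This palindrome, AGAACA followed after 3 bases by its reverse complement, was looked for after the single copies had been seen, and it occurs in 3 of the 32851 windows (0.00913%). The first copy in the Sgk1 sequence overlaps its E-box. The Errfi1 sequence has TGACG on both strands in overlap, 51 and 48 bases before the start, and the Pik3r1 and Foxo3 sequences have 1 TGACG each, on the strand opposite to the gene. The Ddit4 and Foxo1 windows held none of the 4 motifs.

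All 9 genes passed the expression filter and were tested. Scaled to library size and per kb of merged exons (FPKM), Ddit4 was the most abundant, with a median of 47.0 over the 23 libraries. Pik3r1, Irs1, Foxo3, Sgk1 and Errfi1 had medians between 15.7 and 16.8 FPKM, a difference much smaller than their ranges over libraries. Irs2 had a median of 5.18 and Foxo1 of 3.46 FPKM. Sgk3, the endosomal relative of SGK1, was scarce at 0.451 FPKM, with 7 to 366 counts per library against at least 221 for each of the other 8 genes. Below, levels of a gene are in CPM (counts per 1 M of a library, after TMM scaling), which compare libraries and not genes. Library totals ran from 16.5 to 23.1 M counts. Strandedness of the counting was not stated, and Irs1, Foxo1 and Irs2 share 2822, 674 and 162 exonic bases with a gene on the other strand (Gm9747, Gm20402 and 9530052E02Rik), each of which had at most 0.27 CPM in any library.

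The fibroblast label was borne out by Col1a1 at 9205 CPM or more in every library, while the summed level of 6 epithelial markers was at most 5.79 CPM and that of 5 red blood cell markers at most 0.698 CPM. GRwt/wt vehicle replicate 1 stood apart. Its best Spearman correlation with another library was 0.916, against at least 0.973 for the other 22, its genes deviated from their medians with a rank correlation of 0.688 with GC content, and its 5 skeletal muscle markers summed to 267 CPM, with 3 of the 5 at 0 counts, against a median of 24.7. GRwt/wt Dex replicate 1 came next in both, with a rank correlation of 0.323 and 172.5 CPM of muscle markers. Nr3c1, the gene of GR itself, had 4.08 CPM (74 counts) in GRwt/wt vehicle replicate 1, against 73.0 and 88.0 CPM in the other GRwt/wt vehicle libraries and 44.5 to 81.3 CPM with Dex. In the mutants Nr3c1 had 90.2 to 265 CPM. GRwt/wt vehicle replicate 3 had 4989 CPM of 12 macrophage markers, with none at 0, against 18.7 and 43.0 CPM in the other GRwt/wt vehicle libraries, 17.1 to 102 CPM in GRwt/wt Dex, 277 to 1751 in GRD/D, 314 to 776 in GRL/L and 8.16 to 84.9 for GRD+L/D+L. The part of these cells in the results below was not tested.

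In replicate 1 of GRwt/wt vehicle the 9 genes deviated unequally. Sgk3, whose longest transcript is 38.9% GC, had 0.386 CPM there and a mean of 12.4 CPM in replicates 2 and 3, a ratio of 0.0311. Pik3r1, at 44.9% GC, had a ratio of 0.118. Irs1 (50.3% GC) had a ratio of 0.260 and Sgk1 (48.6% GC) a ratio of 0.315. The other 5 genes were near or above the level of the other libraries, at 0.849 for Foxo1 (48.5% GC), 1.06 for Ddit4 (57.9%), 1.14 for Irs2 (56.6%), 1.29 for Foxo3 (53.2%) and 1.504 for Errfi1 (47.5%). The 2 genes of lowest GC content were thus the lowest in this library, while Errfi1, the next in GC content, was not low. Since every comparison with GRwt/wt vehicle contains this library, values without it are given wherever a call depends on it.

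**Figure D1:**
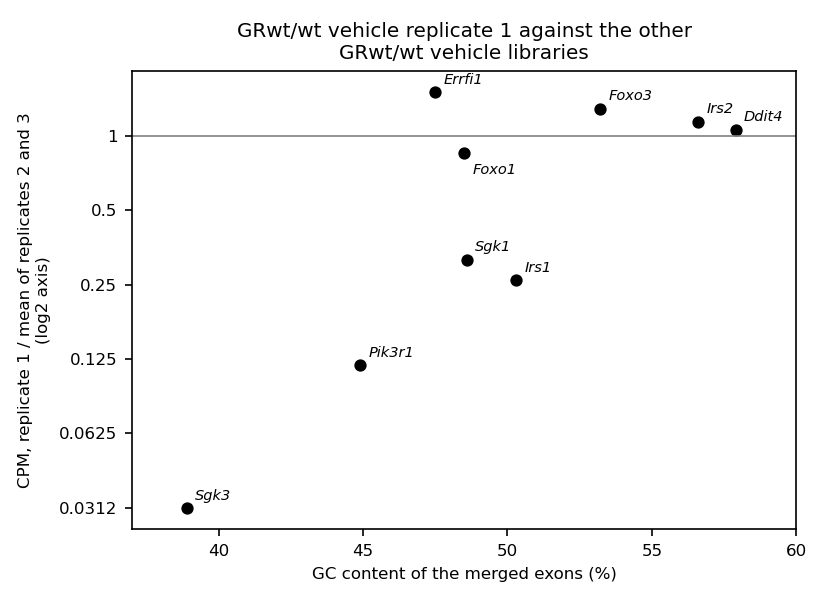
Level in GRwt/wt vehicle replicate 1 divided by the mean of replicates 2 and 3 (vertical, log2 axis) against GC content (horizontal, %), one point per gene. The GC content is that of the longest transcript of each gene, although the axis label names the merged exons. Sgk3 and Pik3r1, the genes lowest in GC content, lie at ratios of 0.0311 and 0.118, and Ddit4, Irs2 and Foxo3, the highest, lie at 1.06 to 1.29.

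The first comparison asked which of these genes the unmodified receptor regulates at a low dose of Dex. In GRwt/wt, the libraries of Foxo3, Pik3r1, Sgk1, Errfi1 and Irs2 were all higher with Dex than any vehicle library, and no gene was lower without overlap. Such a rise without overlap was seen in 5 of the 9 genes and in 4.98% of the 15748 genes tested. As the 9 were chosen with earlier results of these data known, these shares are no test of the set. Only Foxo3 passed the adjusted p, and as its change was below the fold threshold, none of the 9 was called, which took an adjusted p no higher than 0.05 together with a log2 fold change (LFC) of 1 or more in size. Genes called by both thresholds were 0.159% of those tested, and genes past the adjusted p alone 0.222%. An unadjusted p under 0.05 was found for Foxo3, Sgk1, Pik3r1, Foxo1 and Errfi1, and for 2454 of the 15748 genes tested.

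Foxo3, a forkhead factor that AKT and SGK1 hold out of the nucleus, had 134, 112 and 96.5 CPM in the GRwt/wt vehicle libraries and 188, 245 and 189.7 CPM with Dex. The lowest Dex library was thus above the highest vehicle library. The LFC was 0.86 (SE 0.14, n = 3 per group, edgeR adjusted p = 0.00938), a 1.82-fold difference, and Foxo3 ranked 14 of 15748 genes by p. The related Foxo1 had 24.1, 34.7 and 21.97 CPM with vehicle and 31.8, 51.2 and 40.5 CPM with Dex. Its groups overlapped, as vehicle replicate 2 exceeded Dex replicate 1, and the LFC was 0.61 (SE 0.19, edgeR adjusted p = 0.176).

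Pik3r1, which encodes the p85alpha subunit of PI3-kinase, had 12.2, 107 and 99.6 CPM with vehicle and 169, 291 and 252 CPM with Dex in GRwt/wt. Every Dex library was higher, and the LFC of 1.70 (SE 0.48, edgeR adjusted p = 0.148) was the largest of the 9 genes with all libraries. The value of 12.2 CPM came from replicate 1. Without that library the LFC was 1.21 and the edgeR adjusted p fell to 0.0356, which is a call, while the largest LFC was then that of Errfi1 (1.74, edgeR adjusted p = 0.366). The adaptor Irs2 had 29.4, 18.7 and 32.8 CPM with vehicle and 33.4, 40.8 and 34.1 CPM with Dex, and its lowest Dex library was only just above its highest vehicle library (LFC 0.42, SE 0.21, edgeR adjusted p = 0.336). Over 15 alternatives the LFC of Irs2 ran from 0.20 to 0.93. Irs1, the other adaptor, had 33.4, 151 and 106 CPM with vehicle and 109, 139.6 and 171 CPM with Dex. Its groups overlapped, the LFC was 0.53 (SE 0.36, edgeR adjusted p = 0.510), and the sign turned to -0.12 when vehicle replicates 1 and 3 were both omitted, which leaves 1 GRwt/wt vehicle library and takes the spread from the other groups.

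Sgk1, the kinase whose start site 5 is shown above, had 33.7, 104 and 109.6 CPM with vehicle and 141, 189 and 202 CPM with Dex in GRwt/wt. All Dex libraries were higher, by an LFC of 1.10 (SE 0.29, edgeR adjusted p = 0.137). Leaving out vehicle replicate 1, 2 or 3 gave an LFC of 0.73, 1.31 or 1.40, each with an edgeR adjusted p under the threshold (0.0484, 0.0366 and 0.0394), and the last 2 were calls. Sgk3 had 0.386, 8.27 and 16.6 CPM with vehicle and 3.99, 8.71 and 9.55 CPM with Dex, and the Dex libraries lay within the range of the vehicle libraries. Its LFC of -0.19 had an SE of 0.66 and changed sign between single libraries, from -0.75 without vehicle replicate 1 to 0.80 without vehicle replicate 3.

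Errfi1, the inhibitor of the EGF receptor kinase, had 65.6, 56.4 and 30.8 CPM with vehicle and 128, 217 and 89.4 CPM with Dex in GRwt/wt. The groups did not overlap, but both were spread, and the LFC of 1.51 (SE 0.71) had an edgeR adjusted p of 0.317. Ddit4, the mTOR complex 1 brake, had 112, 118 and 94.4 CPM with vehicle and 116, 132 and 125 CPM with Dex. The groups overlapped, and the LFC was 0.20 (SE 0.12, edgeR adjusted p = 0.452). For scale, Fkbp5, a classic GR target, rose from 31.0 ± 12.9 to 348 ± 36.9 CPM (SD, n = 3), an LFC of 3.49 with the lowest p of all genes (edgeR adjusted p = 2.67e-06).

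**Figure D2:**
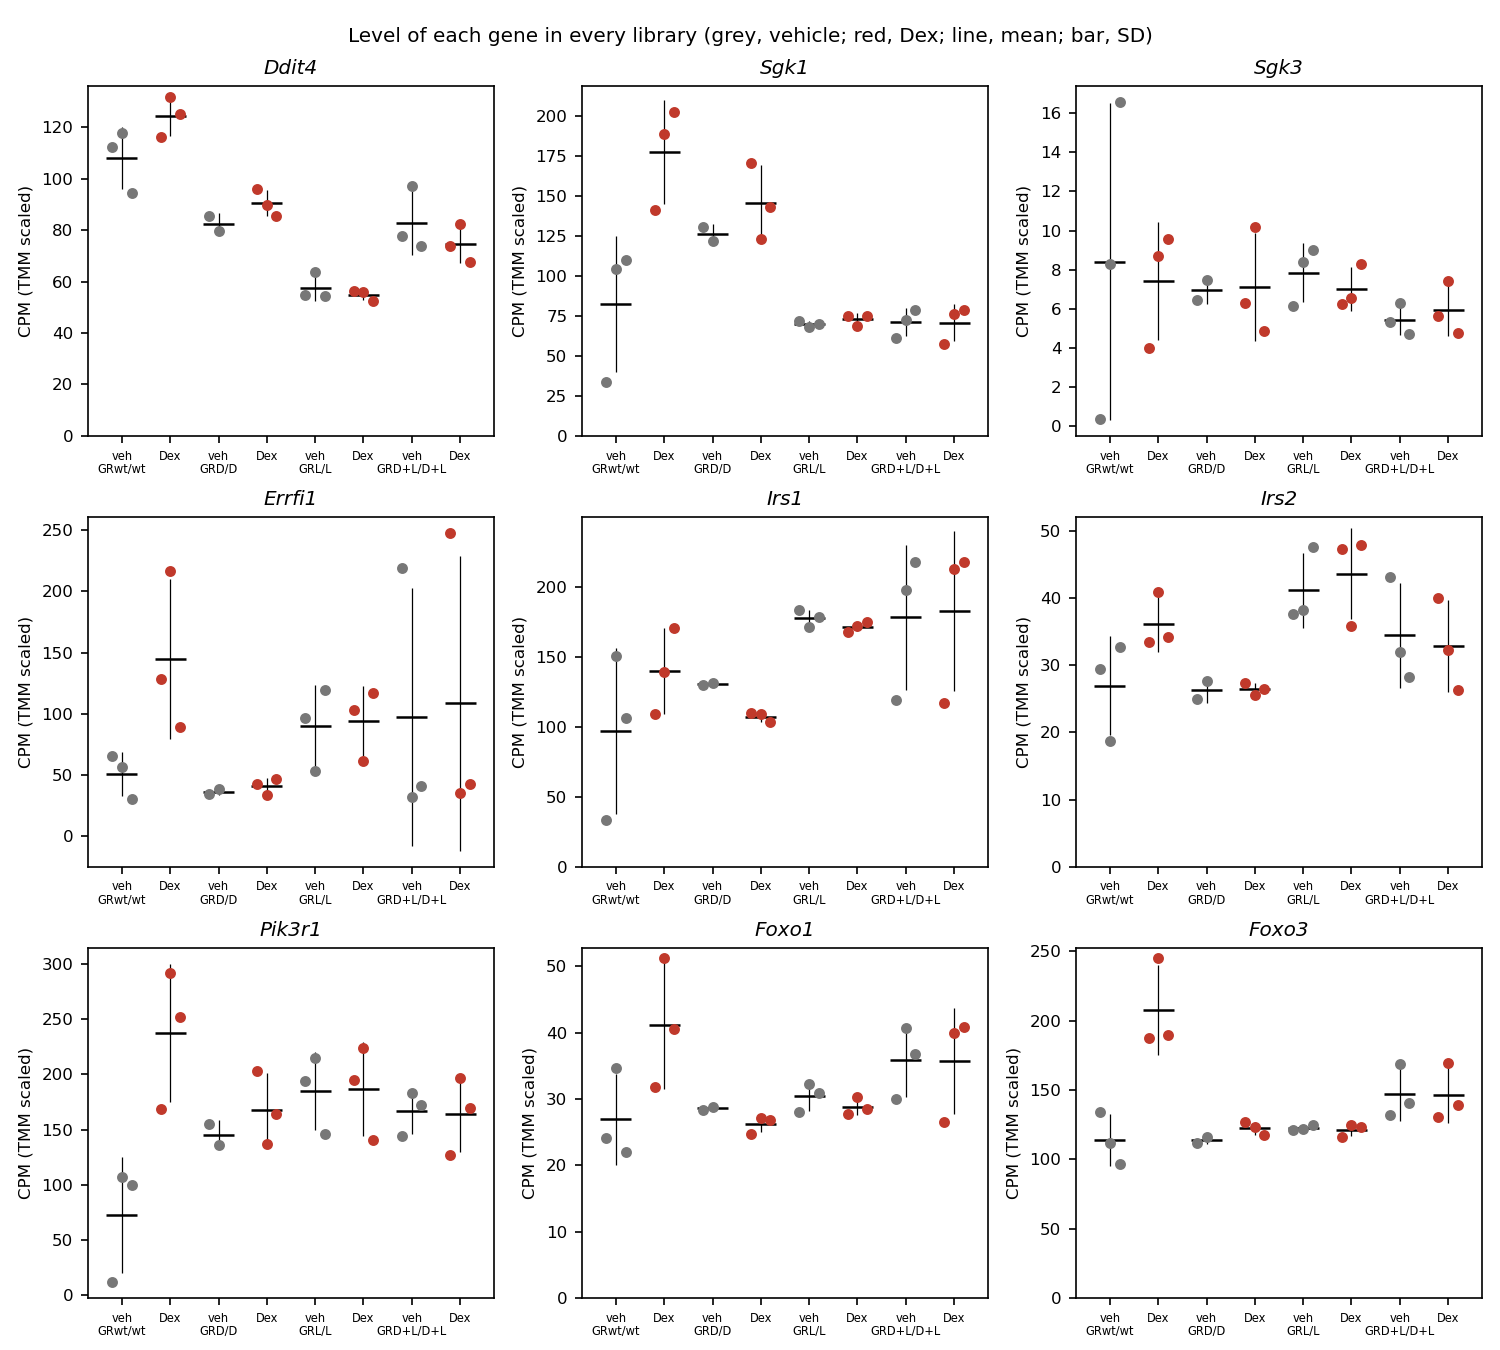
CPM of each of the 9 genes (vertical, linear axis) in every library of the 8 groups (horizontal), with vehicle in grey and Dex in red. Horizontal lines are group means and vertical lines 1 SD. With Dex in GRwt/wt, Foxo3, Pik3r1, Sgk1, Errfi1 and Irs2 lie above all their vehicle libraries, whereas the GRL/L vehicle and Dex points overlap, as do those of GRD+L/D+L, for all 9 genes.

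The calls in GRwt/wt depended on single libraries and on the tool. The count of called genes among the 9 was 0 as tested. It was 1 without vehicle replicate 1 (Pik3r1), where 0.478% of all genes were called, 2 without vehicle replicate 2 (Sgk1 and Pik3r1), where 2.39% were, and 1 without vehicle replicate 3 (Sgk1), where 0.606% were. DESeq2 called Sgk1 (LFC 1.12, DESeq2 adjusted p = 0.0163) and Pik3r1 (LFC 1.72, DESeq2 adjusted p = 0.0195), against 1.77% of the genes to which it gave an adjusted p. A correction of each library for GC content called Pik3r1 (LFC 1.62, edgeR adjusted p = 0.0453), against 0.356% of all genes. A fit that paired libraries by replicate number called Sgk1, Errfi1 and Pik3r1, against 1.26%, although equal numbers did not deviate together in every GRwt/wt pair. Over 15 alternatives, Foxo3 kept an adjusted p of at most 0.05 in 12, with an LFC of 0.72 to 1.00. It lost that with upper-quartile scaling (edgeR adjusted p = 0.0643), without Dex replicate 2 (0.0605) and in a model with just the 6 GRwt/wt libraries, where no gene of the table was called and the edgeR adjusted p was 0.970.

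**Figure D3:**
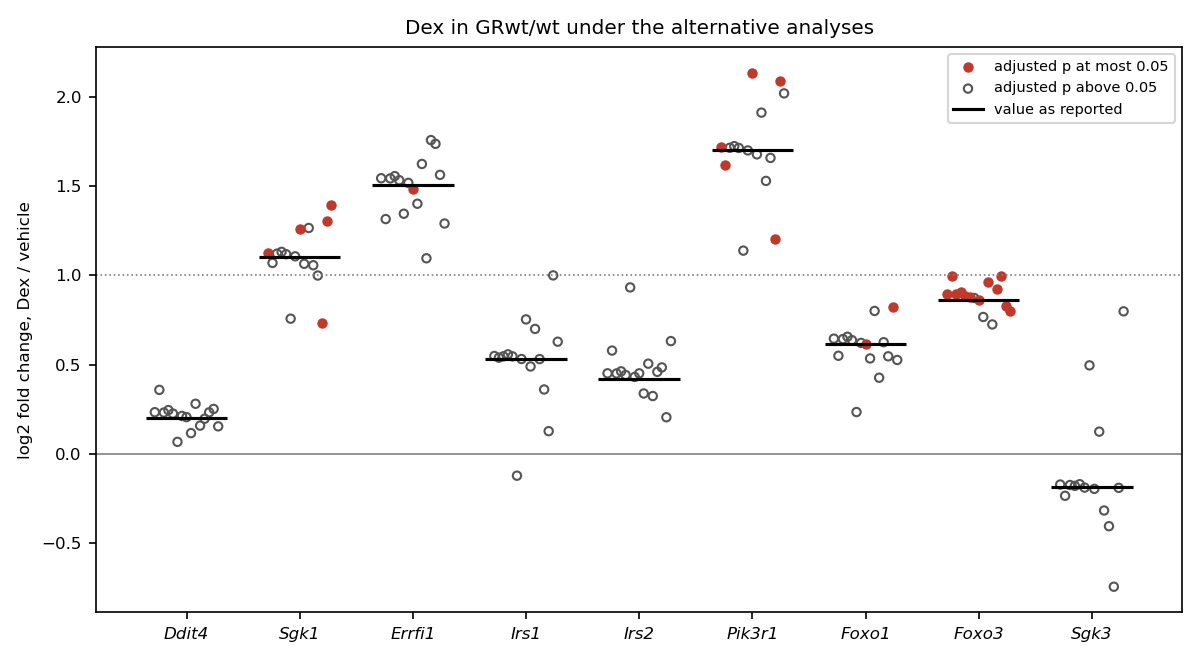
LFC of Dex against vehicle in GRwt/wt (vertical) for each gene (horizontal) under each alternative analysis, filled where the adjusted p was at most 0.05, with the value as reported as a black line and an LFC of 1 as a dotted line. Foxo3 lies between 0.72 and 1.00 and is mostly filled, Sgk1 and Pik3r1 are filled in 5 alternatives each, Foxo1 in 2 and Errfi1 in 1.

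The same comparison was made in the mutants. None of the 9 genes was called in any of the mutants, each edgeR adjusted p was 1, and the background was 0% in all 3, as edgeR called no gene of the table there. Unadjusted p-values under 0.05 were found for 154, 43 and 54 genes, none of them among the 9. DESeq2 called 2 genes of the table in GRD/D, 5 in GRD+L/D+L and 0 in GRL/L, and none of the 9. In GRL/L the LFC of the 9 genes ran from -0.16 (Sgk3) to 0.08 (Irs2), and in GRD+L/D+L from -0.15 (Ddit4) to 0.15 (Errfi1). Leaving out single libraries took these limits as far as -0.31 and 0.32 in GRL/L and -1.33 and 1.56 in GRD+L/D+L. In these last lines, 0 of the 9 genes had groups that did not overlap, against 4.84% and 3.37% of all genes. Foxo3 had 121 to 125 CPM with vehicle and 116 to 125 with Dex in GRL/L (LFC -0.02, SE 0.14). It had 132 to 169 CPM with vehicle and 131 to 169 with Dex in GRD+L/D+L (LFC -0.01, SE 0.14). Sgk1 had 68.0 to 71.7 and 68.6 to 75.0 CPM in GRL/L, against 61.3 to 78.7 and 57.3 to 78.4 CPM in GRD+L/D+L.

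In GRD/D, 4 of the 9 genes had groups that did not overlap, against 21.3% of all genes in this comparison of 3 libraries with 2. Ddit4 was higher with Dex, with 85.4 and 79.6 CPM in vehicle and 95.8, 89.9 and 85.7 CPM with Dex (LFC 0.13, SE 0.14). Foxo3 was also higher, by less than in GRwt/wt, with 112 and 116 CPM in vehicle and 127, 123 and 117 CPM with Dex (LFC 0.10, SE 0.16). Irs1 was lower, with 129.7 and 131 CPM in vehicle and 109.6, 109 and 103 CPM with Dex (LFC -0.28, SE 0.40), and so was Foxo1 (LFC -0.12, SE 0.22). Each of these 4 differences was smaller than its SE, and the edgeR adjusted p was 1. Sgk1 had 130.4 and 121 CPM in vehicle and 170.1, 123 and 143 CPM with Dex. Its groups overlapped, as Dex replicate 2 lay between the vehicle libraries (LFC 0.21, SE 0.32). Pik3r1 (0.21, SE 0.53), Errfi1 (0.17, SE 0.78), Sgk3 (0.04, SE 0.74) and Irs2 (0.01, SE 0.23) had groups that overlapped in GRD/D. Fkbp5 had an LFC of 1.68 in GRD/D (edgeR adjusted p = 0.137) and of 0.12 in GRL/L and 0.07 for GRD+L/D+L.

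Libraries of equal number deviated together in the lines with the L change, and the ratio of Dex to vehicle was taken within these pairs. For Errfi1 the ratio was 1.06, 1.16 and 0.980 in GRL/L and 1.13, 1.09 and 1.03 for GRD+L/D+L, although the cultures themselves differed widely. GRD+L/D+L replicate 1 had 219 CPM of Errfi1 with vehicle and 248 with Dex, while replicates 2 and 3 had 32.4 to 42.5 CPM with either. Without 1 of these high libraries the LFC of Errfi1 in GRD+L/D+L became -1.33 (without Dex replicate 1) or 1.56 (without vehicle replicate 1). For Foxo3 the paired ratio was 0.958 to 1.02 in GRL/L and 0.989 to 1.00 for GRD+L/D+L. For Sgk1 it was 1.01 to 1.07 and 0.934 to 1.05. Ddit4 was lower with Dex in each GRD+L/D+L pair, with ratios of 0.950, 0.849 and 0.916, but not in each GRL/L pair (1.03, 0.877 and 0.963). The ratio farthest below 1 was 0.778, for Sgk3 in GRL/L pair 2, and the farthest above was 1.25, for Irs2 in GRL/L pair 1. Such ratios are not given for GRwt/wt, where equal numbers did not deviate together in every pair.

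**Figure D4:**
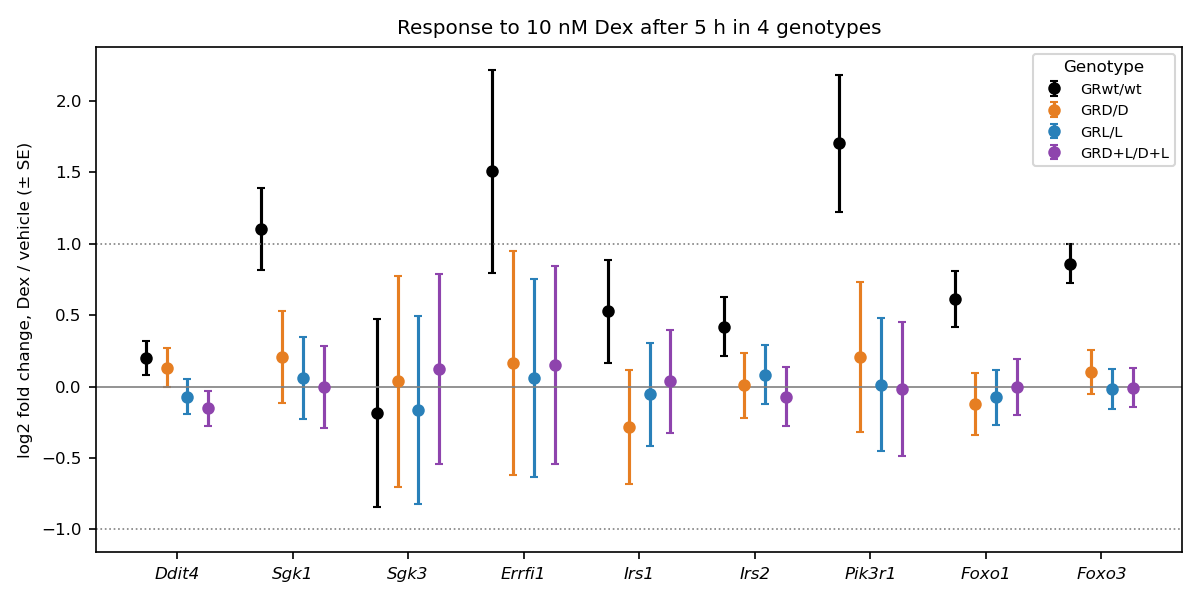
LFC of Dex against vehicle with its SE (vertical) for each gene (horizontal) in the 4 genotypes, with dotted lines at an LFC of 1 and -1. The GRwt/wt value is the highest of the 4 for 8 of the genes, all but Sgk3, and the mutant values lie between -0.28 and 0.21.

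Whether the response to Dex differed from GRwt/wt was tested as an interaction, which shares the GRwt/wt libraries across the 3 mutants. None of the 9 genes was called, and called genes were 0% of all genes for GRD/D and 0.0254% for each of the other mutants. The difference in Foxo3 was -0.76 (SE 0.21, edgeR adjusted p = 0.688) for GRD/D, -0.88 (SE 0.20, edgeR adjusted p = 0.352) for GRL/L and -0.87 (SE 0.20, edgeR adjusted p = 0.355) for GRD+L/D+L, and its unadjusted rank was 27, 12 and 15 of 15748. Sgk1 differed by -0.90, -1.04 and -1.11, Pik3r1 by -1.497, -1.69 and -1.72 and Foxo1 by -0.74, -0.69 and -0.62, all with an unadjusted p under 0.05 and an edgeR adjusted p of at least 0.688. Without GRwt/wt vehicle replicate 1 these differences were -0.53, -0.67 and -0.74 for Sgk1, -1.002, -1.19 and -1.23 for Pik3r1 and -0.67, -0.62 and -0.55 for Foxo1. Over all alternatives and the 3 mutants they ran from -1.40 to -0.53 for Sgk1, from -2.17 to -0.93 for Pik3r1 and from -0.95 to -0.24 for Foxo1. The other 5 genes had unadjusted p-values of 0.0564 or more. Errfi1 differed by -1.34, -1.45 and -1.35 (SEs of 0.99 to 1.04), Irs1 by -0.81, -0.58 and -0.49, Irs2 by -0.41, -0.34 and -0.49, Ddit4 by -0.07, -0.27 and -0.35 and Sgk3 by 0.22, 0.02 and 0.31. The GRwt/wt LFC of Irs1, which enters its differences, was 0.13 without GRwt/wt vehicle replicate 1. Without that library Foxo3 was called for GRL/L (-1.01, edgeR adjusted p = 0.0437), against 0.0574% of all genes, and for GRD+L/D+L (-1.01, edgeR adjusted p = 0.0464), against 0.0510%. With DESeq2 the Foxo3 difference passed the adjusted p in each mutant (DESeq2 adjusted p = 0.0387, 0.00179 and 0.00227) but stayed below the fold threshold, and none of the 9 was called. Foxo3 was also called for GRL/L with the GC correction (-1.01, edgeR adjusted p = 0.0246), against 0.0572% of all genes.

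The last comparison set the mutants against GRwt/wt in vehicle, without added hormone. In GRL/L, Pik3r1 was called higher, 1 of the 9 genes against 7.78% of all genes, and 3 of the 9 passed the adjusted p alone, against 23% of all genes. Groups did not overlap for 4 of the 9 genes, Ddit4, Irs1, Irs2 and Pik3r1, against 38.0% of all genes, so that these shares are near the background. For GRD+L/D+L none was called, against 8.32%, and 1 passed on p alone, against 20.4%. There, groups did not overlap for Pik3r1 only, against 27.4%. In GRD/D none was called by edgeR, against 0.00635% of all genes (1 gene), or by DESeq2, against 0.206% of the genes to which it gave an adjusted p. Without GRwt/wt vehicle replicate 3 edgeR called 376 genes for GRD/D (2.40%), and none of the 9. Ddit4 alone had an unadjusted p under 0.05 in GRD/D, and groups did not overlap for Ddit4, Sgk1 and Pik3r1, against 23.2%.

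Ddit4 had the smallest p of the 9 in GRL/L. Its vehicle libraries had 54.7, 63.8 and 54.5 CPM, and those of GRwt/wt 112, 118 and 94.4 CPM. The level fell by 0.91 on the log2 scale (SE 0.12, edgeR adjusted p = 1.99e-04), which is below the fold threshold. In GRD+L/D+L, Ddit4 had 77.9, 97.1 and 73.7 CPM, with replicate 2 above the lowest GRwt/wt library (LFC -0.38, SE 0.12, edgeR adjusted p = 0.0351, 0.0537 without GRwt/wt vehicle replicate 1). In GRD/D it had 85.4 and 79.6 CPM (LFC -0.39, SE 0.14, edgeR adjusted p = 0.340). The order of the vehicle means was GRwt/wt (108 ± 12.1 CPM), GRD+L/D+L (82.9 ± 12.5), GRD/D (82.5 ± 4.12) and GRL/L (57.7 ± 5.33), in which the middle pair did not differ beyond its spread. The 3 GRL/L Dex libraries, with 52.5 to 56.3 CPM, held the same place below every library of the other genotypes. Over 14 alternatives the GRL/L difference lay between -1.05 and -0.69, with an adjusted p of at most 0.0114.

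Pik3r1 had 194, 215 and 146 CPM in GRL/L vehicle, 144, 183 and 172 CPM in GRD+L/D+L vehicle and 155 and 136 CPM in GRD/D vehicle, all above the 12.2, 107 and 99.6 CPM of GRwt/wt. The LFC was 1.34 in GRL/L (SE 0.48, edgeR adjusted p = 0.0499), 1.19 in GRD+L/D+L (SE 0.47, edgeR adjusted p = 0.0830) and 1.00 in GRD/D (SE 0.52, edgeR adjusted p = 0.428). Without GRwt/wt vehicle replicate 1 these values were 0.84, 0.71 and 0.50, each below the fold threshold, with an edgeR adjusted p of 0.0228, 0.0501 and 0.592. Pik3r1 in GRL/L was a call in 6 of 14 alternatives. Irs1 had 183, 172 and 178 CPM in GRL/L, above the highest GRwt/wt library at 151 CPM, with an LFC of 0.88 (SE 0.36, edgeR adjusted p = 0.0885) that was 0.47 without GRwt/wt vehicle replicate 1. Irs2 had 37.6, 38.2 and 47.6 CPM in GRL/L against 29.4, 18.7 and 32.8 CPM in GRwt/wt (LFC 0.61, SE 0.21, edgeR adjusted p = 0.0408), and this value was 0.67 without that library (edgeR adjusted p = 0.0454). Over 14 alternatives the LFC of Irs2 in GRL/L lay between 0.39 and 1.12, with an adjusted p of up to 0.155. In GRD+L/D+L, the LFC of Irs1 was 0.88 (edgeR adjusted p = 0.0933, and 0.49 without that library) and that of Irs2 0.35 (edgeR adjusted p = 0.225).

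Sgk1 changed place with the same library. As tested, its vehicle LFC was 0.61 in GRD/D (SE 0.32, edgeR adjusted p = 0.429), -0.24 in GRL/L (SE 0.29, edgeR adjusted p = 0.557) and -0.22 for GRD+L/D+L (SE 0.29, edgeR adjusted p = 0.606). Without GRwt/wt vehicle replicate 1 the values were 0.24, -0.61 and -0.57, and the edgeR adjusted p was 0.0121 for GRL/L and 0.0184 for GRD+L/D+L. Sgk3 in GRD+L/D+L went from -0.63 to -1.17 (edgeR adjusted p = 0.0298), a call, where 8.50% of all genes were called, and Foxo3 in GRD+L/D+L from 0.37 (SE 0.14, edgeR adjusted p = 0.0688) to 0.52 (edgeR adjusted p = 0.0104). Foxo1 in GRD+L/D+L was at 0.41 (SE 0.19, edgeR adjusted p = 0.138). Errfi1 did not differ beyond its spread in any mutant, with an LFC of -0.48 for GRD/D, 0.82 for GRL/L and 0.94 for GRD+L/D+L and SEs of 0.70 to 0.79. For GRL/L the remaining LFCs were -0.10 for Sgk3, 0.18 for Foxo1 and 0.10 for Foxo3, and for GRD/D they were 0.43 for Irs1, -0.04 for Irs2, -0.28 for Sgk3, 0.09 for Foxo1 and -0.01 for Foxo3, all with groups that overlapped. Without GRwt/wt vehicle replicate 1 these values were -0.67, 0.11 and 0.24 for GRL/L and 0.03, 0.03, -0.84, 0.02 and 0.13 for GRD/D, in the same order of genes, and Errfi1 in GRD/D was at -0.24. None of these was a call.

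**Figure D5:**
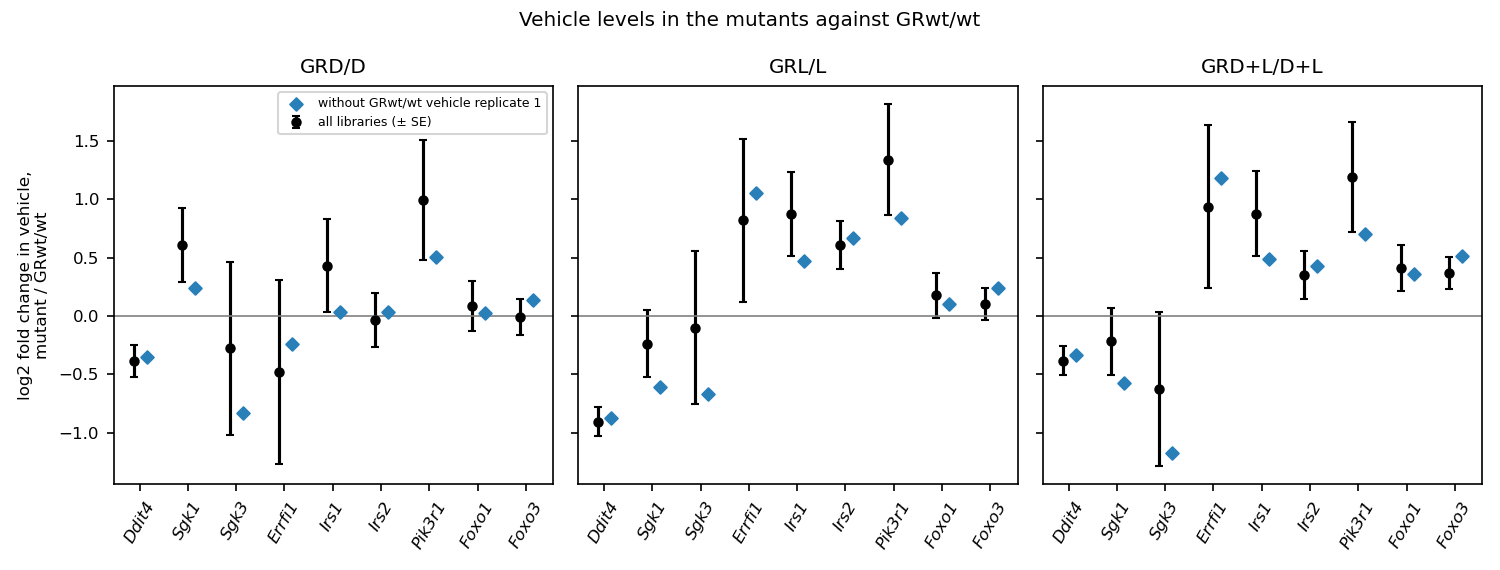
LFC of each mutant against GRwt/wt in vehicle (vertical) for each gene (horizontal), with all libraries (black, SE) and without GRwt/wt vehicle replicate 1 (blue diamonds). Ddit4 in GRL/L lies at -0.91 and -0.88, while Pik3r1 drops from 1.34 to 0.84 in GRL/L and Sgk3 from -0.63 to -1.17 in GRD+L/D+L.

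The neighbouring genes of the pathway were taken from a list of 77, of which 75 were tested. The list was chosen by role with earlier results of these data known, so its shares beside all genes are no test of it. In GRwt/wt, 2 of the 75 were called with Dex, both higher, against 0.159% of all genes, and the median LFC of the list was 0.13, against -0.01 for all genes. Sesn1, a sestrin that restrains mTOR complex 1, rose from 36.2 to 102 CPM (mean, LFC 1.501, SE 0.20, edgeR adjusted p = 0.00158) and was called in 14 of 15 alternatives. Klf15, a glucocorticoid-induced factor of amino acid catabolism, rose from 3.74 to 13.3 CPM (LFC 1.83, SE 0.36, edgeR adjusted p = 0.0349) and was called in 6 of 14. None of the 75 was called with Dex in a mutant by edgeR or DESeq2. As an interaction edgeR called none with all libraries, while DESeq2 called 1 for each mutant, with a lower LFC than in GRwt/wt, against 0.102%, 0.0970% and 0.116% of the genes to which it gave an adjusted p. Sesn1 had an LFC of 0.26, 0.18 and -0.02 in GRD/D, GRL/L and the double mutant, and Klf15 of 0.77, 0.17 and -0.03.

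In vehicle, 12 genes of the list were called in GRL/L (7 of them higher) and 9 for GRD+L/D+L (5 of them higher), out of 75 in each, against 7.78% and 8.32% of all genes, with list medians of 0.04 and 0.13 against -0.05 for all genes in both. Among those with the largest change in GRL/L were Rictor, a core subunit of mTOR complex 2 (LFC 1.62), Sesn3, another sestrin (1.60), Ndrg2 (-1.51) and Ndrg1 (-1.45), both substrates of SGK1, and Phlpp2, a phosphatase of AKT (1.37). In GRD+L/D+L they included Klf15 (-1.94), Sesn3 (1.61), Egfr, the receptor that MIG6 inhibits (1.60), Grb14, an adaptor that inhibits the insulin receptor (-1.60), and Phlpp2 (1.17). All of these had an edgeR adjusted p of at most 0.0486. Rictor was a call in 8 of 14 alternatives and Sesn3 in GRL/L in all 14. In GRD+L/D+L, the 9 calls became 0 with a model of the compared genotypes alone, where 0.754% of all genes were called. They became 17 without GRwt/wt vehicle replicate 3, the library with the macrophage markers, where 12.8% of all genes were called. In GRD/D no gene of the list was called with all libraries, but 5 were without GRwt/wt vehicle replicate 3 (3 of them higher) and 2 without vehicle replicates 1 and 3. All genes called in GRD/D were 2.40% and 0.346% of those tested under these omissions, and the second leaves 1 GRwt/wt vehicle library.

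The genes whose levels ran most like those of 4 of the 9 were ranked by the Spearman correlation of log2 CPM over the 23 libraries, which share genotypes, cultures and depth, so that the values are descriptions. Ddit4 was most like Hes6 (rho 0.971), followed by Cisd1, Gdpd1, Uap1l1 and Atp5j (0.904 to 0.913). Sgk1 was most like Anxa1, which encodes the anti-inflammatory annexin A1 (0.936), followed by Ppp3r1, Slc25a16, Ap1s2 and Serinc3 (0.899 to 0.911). Errfi1 was most like Sspn (0.936), then Gprc5c, Efemp1, Pcsk2 and Rab11fip4 (0.882 to 0.928). Irs2 was most like Ago1 (0.875), then Casp2, Morc2a, Dock9 and Osbpl3 (0.828 to 0.855). Of the 9 genes, only pairs that include 1 of these 4 were computed. Errfi1 and Irs2 ran together (0.704), as did Ddit4 and Sgk1 (0.576). Ddit4 ran against Irs1 (-0.493) and Irs2 (-0.450), and Sgk1 against Irs2 (-0.439).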

How the data were processed

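Total RNA of 23 MEF libraries (TruSeq, NovaSeq) was mapped by the authors with HISAT2 2.1.0 to mm10, and uniquely mapped reads were counted per gene with featureCounts 2.0.0, per the labels and the study's methods. The deposited values are raw read counts per Ensembl gene. The annotation release and strandedness were not given in the sources used here. Names, exon lengths, GC content and coordinates were taken from GENCODE M21 (GRCm38), in which 55227 of 55487 identifiers occur, and promoters from RefSeq.

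Differences were tested by quasi-likelihood in edgeR 4.0.16 (R 4.3.3). All 23 libraries entered 1 model with a mean for each of the 8 groups (TMM scaling, filterByExpr, 15748 genes, prior count 0.125), and adjusted p-values (Benjamini-Hochberg) are over all genes tested. The call required an adjusted p no higher than 0.05 together with an LFC of 1 or more in size. Each SE is the LFC divided by the root of its F value. The test was checked on simulated counts. No libraries of a group agreed within sampling noise, since the mean chi-square per gene was at least 8.97 for each pair. Libraries with equal replicate numbers were compared by the correlation of their deviations from the group means, which was 0.322 to 0.644 in GRL/L and 0.652 to 0.887 for GRD+L/D+L, but 0.547, 0.0266 and -0.0264 in GRwt/wt, while GRD/D gave only 2 pairs. Numbers were therefore taken to pair libraries in the lines with the L change, from these data, since the labels do not state it. DESeq2 1.42.0, other scalings and filters, a GC correction, fewer genotypes in the fit, a replicate block and leaving out each library were alternatives.

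The 9 genes and the pathway list were chosen with earlier results of these data known. The 9 genes were to be named in every comparison (with Dex in the lines with the L change, some stand only within a range), as were the called genes of the pathway list, or the 6 with the largest change (mean of at least 1 CPM in a group) where more than 6 were called, and the 5 genes most like Ddit4, Sgk1, Errfi1 and Irs2. A pathway gene that this rule selects is not reported here.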

Additional observations from a re-analysis of the deposited data

Results flagged for a closer look

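The LFC of Ddit4 with Dex had opposite signs in different mutants, although none of these changes passed the test (edgeR adjusted p = 1 in each). All 3 GRD/D Dex libraries were above the mean of the GRD/D vehicle libraries (LFC 0.13), while all 3 were below their vehicle mean in GRL/L (LFC -0.07), as were those of GRD+L/D+L (LFC -0.15). Within the equally numbered pairs of GRL/L, Dex replicate 1 (56.3 CPM) was above vehicle replicate 1 (54.7 CPM). The GRD/D response exceeded that of GRL/L by 0.20 and that of GRD+L/D+L by 0.28 on the log2 scale, and neither difference was tested. The same opposition of all libraries was present in 4.10% and 3.74% of all genes for these pairs of genotypes.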

How the results depend on the processing

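None of the 9 genes was called with Dex in GRwt/wt as tested. Adjusted p alone gave 1 (Foxo3, against 0.222% of all genes), DESeq2 gave 2 (1.77%), the GC correction gave 1 (0.356%), and the replicate block gave 3 (Sgk1, Errfi1 and Pik3r1, against 1.26%). The numbers did not pair the GRwt/wt libraries in every pair, as vehicle replicates 2 and 3 correlated best with Dex replicates 3 and 2 (0.544 and 0.375). Leaving out single libraries gave 0 to 2, against 0.0893% to 2.39%. Among the Dex comparisons and interactions, for which the block was run, it changed no other call among the 9, including the lines with the L change, where numbers paired (0 called). For the response of GRL/L minus GRwt/wt, 1 gene (Foxo3) was called with the GC correction instead of 0 (against 0.0572% of all genes), and leave-one-out counts ran from 0 to 1 there (against 0.00637% to 0.0574%) and in GRD+L/D+L minus GRwt/wt (0.0127% to 0.0701%). In vehicle, the single call in GRL/L (Pik3r1) became 0 with RLE scaling (against 7.38% of all genes), with no filter (3.36%) and with only the genotypes compared (4.72%). It became 2 with upper-quartile scaling (Ddit4 and Pik3r1, against 9.53%) and 3 with adjusted p alone (23%). Without single libraries the count was 0 to 2 (5.04% to 17.1%), and each GRL/L library was needed for the call. In GRD+L/D+L the count of 0 became 1 with adjusted p alone (Ddit4, against 20.4%), 1 with the GC correction (Pik3r1, against 11.7%) and 0 to 2 without single libraries (3.73% to 12.8%). Omitting vehicle replicates 1 and 3 leaves 1 GRwt/wt vehicle library, which is then assumed to vary like the other groups. The LFC with Dex in GRwt/wt changed sign for Irs1 (-0.12 without GRwt/wt vehicle replicates 1 and 3) and for Sgk3 (0.50 with the replicate block, and -0.75 to 0.80 without single libraries). Upper-quartile scaling moved the median of all genes in vehicle by -0.12 for GRL/L and -0.15 for GRD+L/D+L, and Ddit4 in GRL/L was -1.03 on that scale. The cause of these changes was not tested. Sgk3 had the fewest counts of the 9 genes (7 to 366 per library), and its vehicle libraries in GRwt/wt ran from 0.386 to 16.6 CPM.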
